A study of Homo sapiens with 2 samples.

Results

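The genes described here are human ZNF genes, a large group of genes named for zinc finger proteins, measured by cap analysis of gene expression (CAGE) in PLC/PRF/5 hepatoma cells. In CAGE, each capped RNA gives a tag at its 5′ end, so the number of tags of a gene counts RNA molecules and does not grow with their length. The members were chosen by their symbol (ZNF, a number and at most 1 letter) and by measured values: the mean of the CPM (tags scaled to the size of the library) of both libraries had to be at least 10. Of 436 identifiers with such a symbol among 16424 listed, 147 passed, which is 33.7% beside 57.6% of all identifiers. The 147 identifiers carry 146 different symbols, since ZNF547 is listed under 2 identifiers. The other 289 were below this level, and 275 of them had a mean of 1 to 10 CPM. The level itself is therefore no finding.

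Non-treated PLC/PRF/5 cells (0 µg/ml) gave 1 library, and cells kept for 6 h with 3 µg/ml M2BPGi, the Wisteria floribunda agglutinin-positive glycan isomer of Mac-2-binding protein, gave the other 1. The study asked which signals M2BPGi regulates in hepatocellular carcinoma cells. PLC/PRF/5 is a single established line that the study took to stand for poorly differentiated tumours, and it carries integrated hepatitis B virus DNA. The libraries held 24040210 (non-treated) and 24862941 (M2BPGi-treated) tags. With 1 library per condition, no difference has a replicate check, and a shift in RNA per cell cannot be told apart from a shift in the share of cells that make the RNA.

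Zinc finger proteins of the C2H2 type hold a zinc ion between a pair of cysteines and a pair of histidines in each finger, and a row of fingers reads a stretch of DNA base by base. Many ZNF proteins carry a KRAB box in front of their fingers, which recruits the corepressor TRIM28 and, through it, histone methylation and heterochromatin protein. KRAB zinc finger genes arose by repeated duplication, lie in clusters on chromosome 19, and are known for the silencing of transposable elements. Other ZNF proteins activate promoters, join corepressor complexes or bind RNA and ribosomes. Messenger RNAs of transcription factors are often short-lived, but RNA half-life was not measured here.

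The labelled cell type was checked with hepatoma markers. AFP, the fetal albumin-like protein of hepatoma cells, had 695 CPM without and 566 CPM with M2BPGi, and SERPINA1, which encodes alpha-1 antitrypsin, had 671 and 455 CPM. ALB itself was low, with 8.82 and 7.04 CPM, as were TTR with 3.62 and 2.49 CPM and APOA1 with 4.37 and 4.63 CPM. The transcription factor genes HNF4A and FOXA2 had 39.1 and 43.8 CPM and 12.8 and 18.4 CPM, APOB had 15.6 and 11.1 CPM, and GPC3 had 62.5 and 52.2 CPM. All 11 hepatoma markers were listed, with summed CPM of 3598 and 3564, and the most abundant was KRT18 with 1250 and 1592 CPM. KRT18 and KRT8 (835 and 811 CPM), keratins of many epithelia, made up 2085 and 2403 of these sums, and the other markers 1513 and 1160. The markers moved both ways, with AFP, SERPINA1, APOB, GPC3 and KRT8 called lower and KRT18, HNF4A and FOXA2 called higher, and KRT8 was not called with TMM scaling. Of 6 markers of other cells, 4 were listed, with summed CPM of 53.9 and 50.4. The leukocyte gene PTPRC was at 0 in both, and the fibroblast gene COL1A1 had 0.67 and 0.76 CPM. LYZ was the most abundant of these, with 32.1 and 29.2 CPM, followed by CD68, which is not restricted to macrophages, with 21.2 and 20.5 CPM. Their part in the values of the ZNF genes was not tested.

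Most ZNF genes differed little between the libraries, and those that differed were more often lower in M2BPGi-treated cells. The log2 ratio of the M2BPGi-treated over the non-treated library is given here with 1 CPM added to both values as a pseudocount, so changes of scarce genes come out smaller than they are. Its median over the 147 identifiers was -0.07 (quartiles -0.26 and 0.09), beside -0.03 (quartiles -0.22 and 0.15) over all 9464 identifiers with a mean of at least 10 CPM. The log2 ratio was below 0 for 93 of 147 ZNF identifiers (63.3%), beside 54.0% of all. A log2 ratio of -0.32 or lower was found for 25 ZNF identifiers (17.0%), beside 15.6% of all. One of 0.32 or higher was found for 3 (2.04%), beside 8.82% of all. At 1.5-fold the count was 2 lower (1.36%), ZNF407 and ZNF692, beside 2.36% of all, and 1 higher (0.68%), ZNF358, beside 1.43% of all. The summed CPM of the ZNF identifiers was 3794 in non-treated and 3613 in M2BPGi-treated cells, or 0.403% and 0.383% of the CPM of all listed genes.

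Which differences exceeded counting error was tested gene by gene, with an exact binomial test (two-sided) of how its tags split between the libraries and Benjamini-Hochberg adjustment. It compares these 2 libraries and not the conditions. It called 48 ZNF identifiers lower (32.7%), beside 32.4% of all, and 13 higher (8.84%), beside 27.0% of all, and left 86 without a call. Of all genes, 166 of 1367 were called higher from 10 to 15 CPM and 275 of 1928 from 15 to 25 CPM. From 25 to 50 CPM it was 494 of 2480, and from 50 CPM 1620 of 3689. The ZNF identifiers called higher at these levels were 4 of 60, 3 of 43, 4 of 32 and 2 of 12. The part of level in the number of calls was not tested, and the shares of all genes given below are not matched for level. Of the called ZNF identifiers 21.3% were higher, and with a trimmed mean of M-values (TMM) as the scaling between the libraries 39.7% were. With TMM scaling 35 were called lower (23.8%) and 23 higher (15.6%), beside 26.7% and 33.0% of all. The median of the ZNF genes was below 0 under each of the 3 scalings. In the following, rose and fell are used of genes that this test called between the libraries, and intervals are 95% Clopper-Pearson intervals of the log2 ratio of the tags, without a pseudocount, which cover counting error only.

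**Figure D1:**
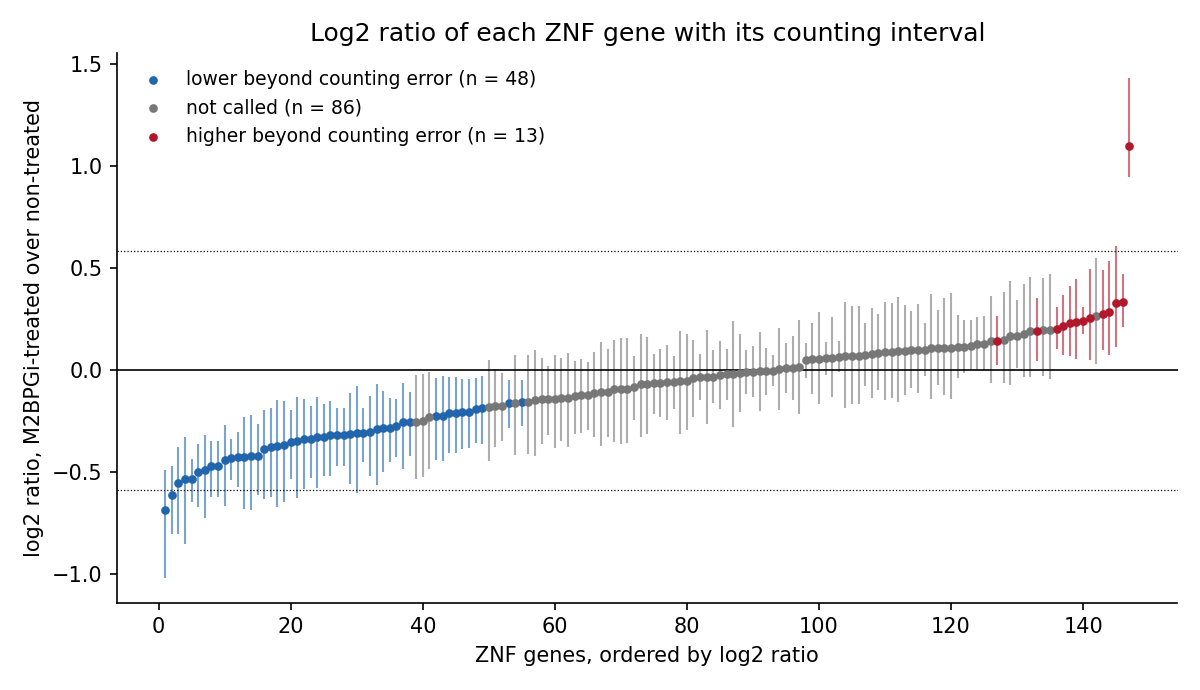
Log2 ratio of the M2BPGi-treated over the non-treated library for the 147 ZNF identifiers, ordered from the lowest to the highest. Points are log2 ratios with a pseudocount of 1 CPM, bars are 95% intervals from the tag numbers, dotted lines mark 1.5-fold, and 48 lower and 13 higher identifiers were called beyond counting error. ZNF358 at 1.10 stands apart at the upper end.

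**Figure D2:**
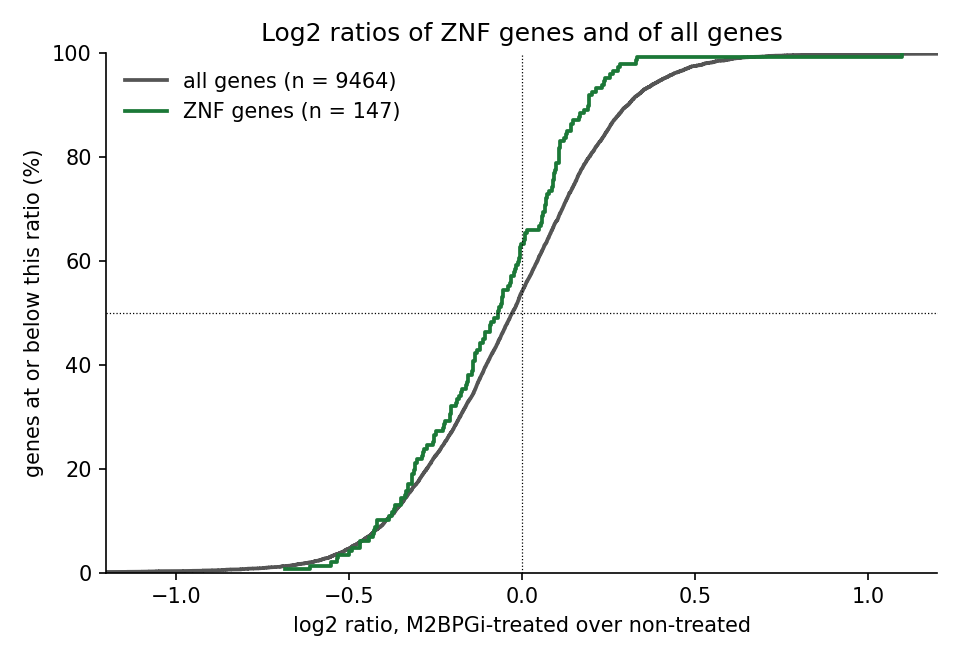
Share of genes, in percent, at or below each log2 ratio, for the 147 ZNF identifiers and for all 9464 identifiers with a mean of at least 10 CPM. The ZNF curve lies to the left around its middle, with a median of -0.07 beside -0.03, and reaches its top earlier, since 3 ZNF identifiers were at 0.32 or higher.

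The deepest fall among the ZNF genes was that of ZNF407, a long protein with 23 C2H2 fingers that is known from glucose uptake in fat cells. It had 13.3 CPM without and 7.88 CPM with M2BPGi, from 319 and 196 tags, and its log2 ratio was -0.68 (interval -1.02 to -0.49), so it passed the mean of 10 CPM through the non-treated library. ZNF692, a zinc finger protein that binds the promoter of the gluconeogenic gene PCK1 and is a substrate of AMP-activated kinase, had 31.1 and 19.99 CPM. Its log2 ratio was -0.61 (interval -0.80 to -0.47). These were the lowest log2 ratios among the 147, and both intervals lay wholly below 0. ZNF608, which has 1 finger by the pattern used here, had 18.9 and 12.6 CPM and a log2 ratio of -0.55 (interval -0.80 to -0.38). ZNF165, a cancer-testis antigen, was far more abundant, with 75.3 and 51.7 CPM. Its log2 ratio of -0.53 had a narrow interval of -0.65 to -0.44, since it rested on 1809 and 1286 tags.

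Genes of other kinds completed the lower end. ZNF331, an imprinted KRAB gene of chromosome 19, had 20.2 CPM without and 14.1 CPM with M2BPGi, with a log2 ratio of -0.49 (interval -0.72 to -0.32). ZNF292, whose mutations cause a neurodevelopmental disorder, had 20.2 and 14.6 CPM and a log2 ratio of -0.44. An identifier listed as ZNF417 (ENSG00000268750, named AC010522.1 in GENCODE v29) and its neighbour ZNF587B both had 42.1 and 30.2 CPM. They overlap on 1 strand, so that the single log2 ratio of -0.47 cannot be given to either. The other identifier listed as ZNF417 (ENSG00000173480) was below the level, with 7.45 and 5.47 CPM. The lower end thus joined abundant and scarce genes, with and without a KRAB box. Each of its 10 identifiers was called lower, beside 32.4% of all genes. They were picked by these same log2 ratios, so this count is no finding.

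The upper end was led by 1 gene. ZNF358, with 9 C2H2 fingers and no KRAB match, had 8.40 CPM without and 19.1 CPM with M2BPGi, from 202 and 475 tags. Its log2 ratio was 1.10 (interval 0.94 to 1.43), and it was the only one of the 147 that was at least 2-fold changed. It passed the mean of 10 CPM through the M2BPGi-treated library. The next highest was ZNF703, a transcriptional corepressor amplified in luminal breast tumours, with 36.1 and 45.7 CPM and a log2 ratio of 0.33 (interval 0.21 to 0.47). ZNF260, a cardiac transcription activator, had 9.94 and 12.8 CPM and a log2 ratio of 0.33 (interval 0.11 to 0.61). It passed through the M2BPGi-treated library too.

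The other genes at the upper end were small gains. The KRAB genes ZNF627, ZNF544 and ZNF562 of chromosome 19 had log2 ratios of 0.28, 0.28 and 0.25. ZNF627 had 11.7 CPM without and 14.4 CPM with M2BPGi, ZNF544 had 16.1 and 19.7 CPM, and ZNF562 had 12.5 and 15.1 CPM. All of them resemble other genes over part of the first 500 nt of their transcripts, so that tags of the copies could be split among them. The CPM of ZNF544 were also those of another identifier, CTD-3138B18.4, which is not in GENCODE v29. ZNF232 had 9.32 and 11.4 CPM (interval 0.03 to 0.55), and it was not called after adjustment, except with TMM scaling.

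The promoters of the ZNF genes at both ends and of a pair of abundant ones with near-equal CPM are shown here, as the reference sequence from 250 bases before to 50 bases after the start that RefSeq gives (GRCh38.p14, 5′ to 3′ on the strand of the gene). That start was not compared with the tags, and the submitters' processing notes name build hg19, so these positions are those of the reference and not of the tags. Capitals mark the letters GGGCGG or CCGCCC (the GC box and its reverse) and CCGGAAG or CTTCCGG (a core bound by factors of the ETS family and its reverse). The identifiers are ENSG00000198816 (ZNF358), ENSG00000215421 (ZNF407), ENSG00000171163 (ZNF692), ENSG00000142684 (ZNF593) and ENSG00000010244 (ZNF207). The window of ZNF358 is chr19:7515853-7516152 (plus strand), and the gene rose. The genes ZNF407 at chr18:74597620-74597919 (plus) and ZNF692 at chr1:248859036-248859335 (minus strand) fell. ZNF593 at chr1:26169658-26169957 (plus) and ZNF207 at chr17:32349907-32350206 (plus) were among the most abundant and were not called, though with TMM scaling ZNF593 was called higher.
ZNF358: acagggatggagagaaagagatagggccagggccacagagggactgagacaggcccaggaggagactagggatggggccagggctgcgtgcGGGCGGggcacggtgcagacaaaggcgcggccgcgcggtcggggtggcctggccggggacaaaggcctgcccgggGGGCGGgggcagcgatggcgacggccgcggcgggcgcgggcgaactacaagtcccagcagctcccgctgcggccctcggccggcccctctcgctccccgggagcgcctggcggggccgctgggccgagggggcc
ZNF407: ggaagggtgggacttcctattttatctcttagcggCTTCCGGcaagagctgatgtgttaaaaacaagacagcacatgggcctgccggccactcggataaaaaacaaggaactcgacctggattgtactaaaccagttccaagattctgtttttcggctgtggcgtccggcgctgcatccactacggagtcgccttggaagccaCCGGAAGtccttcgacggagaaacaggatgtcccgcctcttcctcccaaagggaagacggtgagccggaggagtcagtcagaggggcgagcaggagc
ZNF692: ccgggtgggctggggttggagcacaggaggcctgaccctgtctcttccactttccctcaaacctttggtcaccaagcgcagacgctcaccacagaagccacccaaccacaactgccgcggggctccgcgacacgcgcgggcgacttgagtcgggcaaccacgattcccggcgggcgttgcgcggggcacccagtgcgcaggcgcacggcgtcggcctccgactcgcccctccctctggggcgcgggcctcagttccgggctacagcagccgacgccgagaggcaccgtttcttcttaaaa
ZNF593: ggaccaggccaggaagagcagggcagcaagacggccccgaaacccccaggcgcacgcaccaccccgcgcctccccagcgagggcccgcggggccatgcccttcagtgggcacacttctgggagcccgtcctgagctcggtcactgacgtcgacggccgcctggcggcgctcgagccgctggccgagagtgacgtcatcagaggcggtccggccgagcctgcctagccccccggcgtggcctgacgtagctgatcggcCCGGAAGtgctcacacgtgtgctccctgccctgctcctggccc
ZNF207: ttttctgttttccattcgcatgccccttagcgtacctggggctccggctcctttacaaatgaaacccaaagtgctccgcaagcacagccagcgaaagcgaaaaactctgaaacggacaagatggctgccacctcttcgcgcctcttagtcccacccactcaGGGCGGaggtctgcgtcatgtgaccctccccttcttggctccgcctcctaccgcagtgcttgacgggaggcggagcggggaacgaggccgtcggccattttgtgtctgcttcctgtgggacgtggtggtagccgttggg
The window of ZNF358 holds 2 GC boxes, 32 CG dinucleotides and 76.3% G and C. That of ZNF407 holds 0 GC boxes but 2 ETS cores, with 18 CG dinucleotides and 55.3% G and C. ZNF692, which has 32 CG dinucleotides as ZNF358 does, has neither of these letter runs. ZNF593 has 1 ETS core and ZNF207 has 1 GC box, so the 5 windows share no single motif among those searched.

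Of the 147 identifiers, 127 had a promoter in this table by identifier or symbol. Their median share of G and C was 63.0%, beside 65.7% over 6739 promoters of genes with a mean of at least 10 CPM and 58.3% over all 27305 promoters. The GC box (GGGCGG on either strand) was in 67.7% of the ZNF promoters, beside 73.1% and 44.6%. CCAAT on either strand was in 46.5%, beside 38.1% and 35.7%, and TATAAA on either strand in 2.36%, beside 4.90% and 11.95%. CCGGAAG on either strand was in 53 ZNF promoters (41.7%), beside 22.4% and 10.7%. It was in 20 of 43 promoters of ZNF identifiers with a log2 ratio above 0 and in 33 of 84 of those below 0, or 46.5% and 39.3%. A match describes the letters and is no evidence of binding, and ZNF promoters related by duplication are not independent of each other.

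Of the 6 most abundant ZNF genes, 4 were not called, but with TMM scaling ZNF593, ZNF768 and ZNF595 of these were called higher. All 6 had more than 50 CPM, and of all genes at that level 868 of 3689 were not called with library size as the scaling. ZNF706, a small protein that holds back KLF4 in embryonic stem cells, led with 142 CPM without and 168 CPM with M2BPGi and rose with a log2 ratio of 0.24 (interval 0.18 to 0.31). A near-identical stretch of its start lies in another gene of the annotation, so its tags may be split. ZNF593 had 116 and 121 CPM, with a log2 ratio of 0.07 (interval -0.01 to 0.14). ZNF207 had 114 CPM in each, with a log2 ratio of 0.00 and an interval of -0.08 to 0.07 from 2744 and 2833 tags, and it has such a stretch too. ZNF768 had 98.4 and 102 CPM and ZNF595 had 88.1 and 91.2 CPM, and neither was called with library size as the scaling. ZNF638 was the other called gene among the 6, lower with 77.0 CPM without and 56.9 CPM with M2BPGi and a log2 ratio of -0.43 (interval -0.54 to -0.33).

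**Figure D3:**
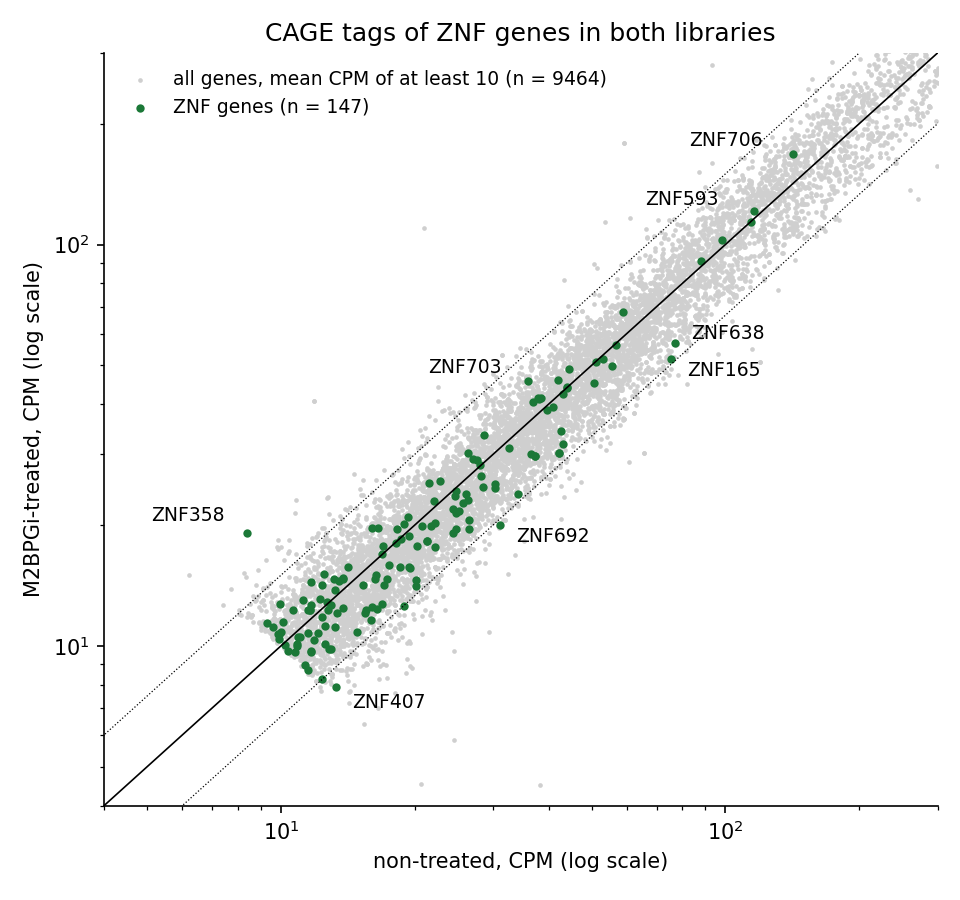
CPM of each gene in the M2BPGi-treated library (vertical, log scale) against the non-treated library (horizontal, log scale), for 147 ZNF identifiers over all 9464 identifiers with a mean of at least 10 CPM that fall inside the axes. The line marks equal values and the dotted lines 1.5-fold. ZNF358 (8.40 and 19.1 CPM) lies above the upper dotted line, and ZNF407 (13.3 and 7.88 CPM) and ZNF692 (31.1 and 19.99 CPM) lie below the lower one.

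Grouped by role, 10 ZNF genes of RNA, ribosome and spindle biology were listed and all 10 passed the mean of 10 CPM. Their median log2 ratio was -0.01 (0.04 with TMM scaling), with 1 called higher, 3 lower and 6 not called, or 10% and 30% beside 27.0% and 32.4% of all genes. With TMM scaling 3 were called higher and 3 lower, or 30% each beside 33.0% and 26.7% of all genes. ZNF593 and ZNF598 were called higher with this scaling only. The 4 ribosome genes were not among the lower ones. ZNF593, which takes part in the maturation of the large ribosomal subunit, was given above, and ZNF622, which acts late in the same maturation, had 43.0 and 42.4 CPM (interval -0.15 to 0.10). ZNF598, the ubiquitin ligase that marks collided ribosomes, had 38.1 CPM without and 41.2 CPM with M2BPGi (interval -0.02 to 0.24). ZNF277, which binds a protein of the small ribosomal subunit, rose from 16.5 to 19.6 CPM with a log2 ratio of 0.24 (interval 0.06 to 0.44).

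The 3 genes of this list that were called lower were ZNF638, ZNF326 and ZNF346. ZNF638, which works with the HUSH complex in silencing unintegrated retroviral DNA, has the values given above. ZNF326, a subunit of the DBIRD complex that couples transcription to splicing, fell from 22.3 to 17.7 CPM (log2 ratio -0.32, interval -0.52 to -0.15). ZNF346, which binds double-stranded RNA, fell from 30.4 to 25.3 CPM (log2 ratio -0.25, interval -0.42 to -0.11). ZNF830, a factor of splicing and DNA repair, had 25.7 and 22.7 CPM and was not called, and ZNF106, an RNA-binding protein of muscle and nerve, had 43.9 and 44.2 CPM. ZNF207, which also loads BUB3 onto kinetochores at mitosis, showed equal CPM as given above.

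Of 10 activators and looping factors, 8 passed the mean of 10 CPM, with a median log2 ratio of -0.15, 1 called higher and 3 lower, or 12.5% and 37.5% beside 27.0% and 32.4% of all genes. ZNF143, which binds promoters at the anchors of chromatin loops, had 41.0 CPM without and 39.3 CPM with M2BPGi, and its interval was -0.19 to 0.07. Its close relative ZNF76, which reads the same kind of site, fell from 34.2 to 23.9 CPM, with a log2 ratio of -0.50 (interval -0.67 to -0.36). The intervals of these 2 relatives did not overlap. ZNF335, a component of histone H3 lysine methyltransferase complexes that is mutated in microcephaly, fell from 43.1 to 31.8 CPM (log2 ratio -0.43). ZNF384, a partner in gene fusions of acute leukaemia, fell from 24.4 to 19.1 CPM (log2 ratio -0.34). ZNF410, whose main known target gene is CHD4, rose from 21.6 to 25.5 CPM (log2 ratio 0.23, interval 0.07 to 0.41). ZNF281, ZNF263 and ZNF24 were not called, with log2 ratios of 0.09, -0.14 and -0.16.

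Of 11 members of corepressor complexes, 10 were listed and 5 passed. All 5 had a log2 ratio below 0 (3 of 5 with TMM scaling), beside 54.0% of all genes, with a median of -0.18, and 2 were called lower (40%, beside 32.4% of all). ZNF217, an oncogene of chromosome 20 that sits in the CoREST complex, fell from 16.4 to 12.4 CPM (log2 ratio -0.38, interval -0.63 to -0.19). ZNF687, a partner of ZMYND8, fell from 19.4 to 15.8 CPM (log2 ratio -0.28, interval -0.50 to -0.10). Its partner ZNF592 had 39.7 and 38.8 CPM and was not called. ZNF644, which brings the histone methyltransferases G9a and GLP to chromatin, had 20.2 and 17.8 CPM, and ZNF219 had 18.6 and 18.4 CPM. With TMM scaling the log2 ratios of ZNF592 and ZNF219 turned to 0.02 and 0.04.

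Of 12 KRAB repressors, some of them known for transposable elements, imprints or ZNF genes, 11 were listed and only 3 passed the mean of 10 CPM. Their median log2 ratio was -0.14. ZNF432, which also acts in DNA repair, fell from 12.4 to 8.25 CPM (log2 ratio -0.53, interval -0.85 to -0.33) and passed through the non-treated library. ZNF91, the repressor of SVA elements and, with 31 fingers, the longest array found among the ZNF genes here, had 13.8 CPM without and 12.4 CPM with M2BPGi (interval -0.38 to 0.08). ZNF445, which protects imprints, had 12.98 and 12.7 CPM. Neither ZNF91 nor ZNF445 was called, and with TMM scaling ZNF445 had a log2 ratio of 0.02.

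**Figure D4:**
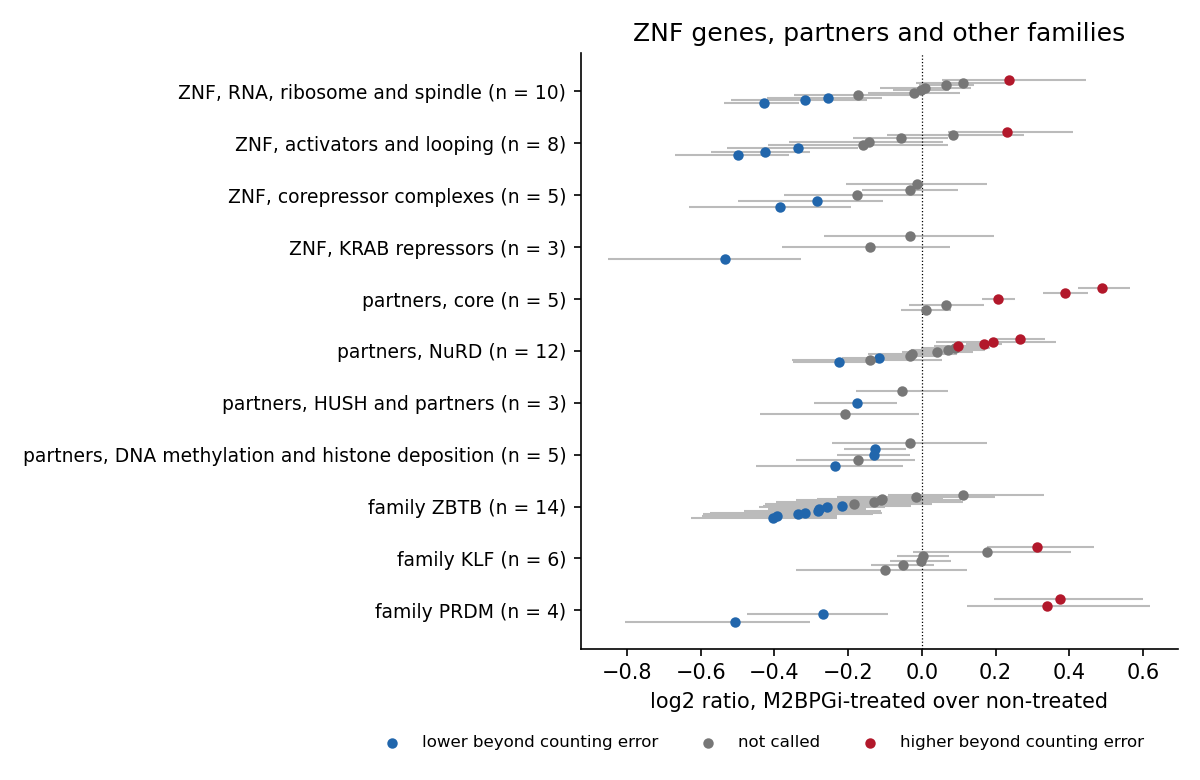
Log2 ratio (horizontal axis) of each gene with a mean of at least 10 CPM in 4 role lists of ZNF genes, 4 lists of their partner proteins and 3 other zinc finger families. Points are log2 ratios with a pseudocount of 1 CPM, lines are 95% intervals from the tag numbers, and colours show the calls beyond counting error. The core partners lie above 0, and 13 of 14 ZBTB genes lie below 0 (12 of 14 with TMM scaling).

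Protein features were read from GENCODE v29. Of the 147 identifiers, 145 were in that annotation and 144 had a complete protein. A C2H2 finger was counted where a pair of cysteines 2 to 4 residues apart was followed after 12 residues by a pair of histidines 3 to 5 residues apart. It was found in 138 of the 144, beside 4.32% of 19998 proteins of the annotation. The 6 without it are ZNF703, ZNF259, ZNF330, ZNF720, ZNF738 and the second ZNF547 identifier. The pattern is strict, so fingers of other spacing, such as that known of ZNF703, are missed. ZNF259, now named ZPR1, had 36.9 CPM without and 40.5 CPM with M2BPGi, and ZNF330 had 17.0 and 17.7 CPM. ZNF259 was called higher with TMM scaling only. The 6 had a median log2 ratio of 0.09.

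A KRAB box with fingers was matched in 56 identifiers, and 82 had fingers without a match. The pattern is strict and misses divergent boxes, among them that of ZNF445. The KRAB group had a median of -0.09 (-0.05 with TMM scaling), with 3 called higher, 17 lower and 36 not called. The group without a match had a median of -0.07 (-0.02 with TMM scaling), with 9 higher, 30 lower and 43 not called. The lower calls were 30.4% of the KRAB group and 36.6% of the others, beside 32.4% of all genes, and the higher calls 5.36% and 11.0%, beside 27.0%. With TMM scaling 4 of the KRAB group were called higher and 12 lower (7.14% and 21.4%). Of the others 15 were called higher and 22 lower (18.3% and 26.8%), beside 33.0% and 26.7% of all genes with this scaling. The KRAB genes were scarcer, with a median level of 13.8 CPM beside 23.1 CPM, and the part of this in the number of calls was not tested. By number of fingers, the median log2 ratio was -0.07 for 1 to 4 fingers (n = 32), -0.15 for 5 to 9 (n = 42), -0.07 for 10 to 14 (n = 39) and -0.05 for 15 and over (n = 25). Across the 138 genes, which share both libraries and in part their ancestry, Spearman's rho between the number of fingers and the log2 ratio was 0.04.

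On chromosome 19 lay 59 ZNF identifiers, or 40.7% of the 145 in the annotation (GRCh38), beside 6.69% of all genes with a mean of at least 10 CPM. Their median log2 ratio was -0.07 (-0.02 with TMM scaling), with 7 called higher and 19 lower, or 11.9% and 32.2% beside 27.0% and 32.4% of all genes. The 86 on other chromosomes had a median of -0.09 (-0.04 with TMM scaling), with 6 higher and 29 lower, or 6.98% and 33.7%. With TMM scaling 9 were called higher and 12 lower on chromosome 19 (15.3% and 20.3%). Elsewhere 13 were called higher and 23 lower (15.1% and 26.7%), beside 33.0% and 26.7% of all genes with this scaling. The 558 other genes of chromosome 19 had a median of -0.02.

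Related and overlapping genes limit what the tags can tell. Of the 147 identifiers, 20 (13.6%) had exactly the same CPM in both libraries as another identifier, beside 7.06% of all identifiers with a mean of at least 10 CPM. For 16 of the 20 the other identifier overlaps on the same strand, as for the ZNF417 identifier above and ZNF587B, ZNF28 and ZNF468 (both 21.3 and 18.3 CPM), ZNF564 and an identifier listed as ZNF709 (both 11.7 and 12.3 CPM) and the pair of ZNF547 identifiers (37.4 and 29.8 CPM). GENCODE v29 names that ZNF709 identifier AC008758.1 and the second ZNF547 identifier AC003002.1, and the other ZNF709 identifier was below the level, with 3.62 and 4.26 CPM. ZNF561 and ZNF655 had the CPM of genes elsewhere, TRPM4 and FAM214B. ZNF544 and ZNF664 had those of identifiers that are not in the annotation, so their place was not compared. A near-identical stretch in a gene elsewhere was found for 41 identifiers, some of them among the 20, and their median log2 ratio was 0.00 (0.05 with TMM scaling), beside -0.10 for the 104 without one (-0.05 with TMM scaling). The calls in these groups were 4 higher and 11 lower of 41 (9.76% and 26.8%), and 9 higher and 37 lower of 104 (8.65% and 35.6%). Of all genes 27.0% were called higher and 32.4% lower. With TMM scaling 7 of the 41 were called higher and 6 lower (17.1% and 14.6%). Of the 104 it was 15 higher and 29 lower (14.4% and 27.9%), beside 33.0% and 26.7% of all genes with this scaling.

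Length and level moved with the log2 ratio over all genes, and the ZNF genes are long and scarce. Their median transcript length was 3547 nt, beside 2952 nt over 8543 genes with a mean of at least 10 CPM, and their median level was 17.9 CPM beside 36.7 CPM. The ZNF genes were split into 4 equal parts by transcript length. In the longest part, above 5254 nt, the median log2 ratio was -0.14 (n = 36), beside -0.13 for all 1650 genes of that length. In the shortest part it was -0.01 (n = 36), beside 0.07 for 3143 genes. Across genes, which are not independent, Spearman's rho of length with the log2 ratio was -0.16 over 144 ZNF genes and -0.29 over all 8543. From 10 to 15 CPM the ZNF genes had a median of -0.06 (n = 60), beside -0.09 over all 1367 genes of that level. From 15 to 25 CPM it was -0.14 (n = 43), beside -0.07, from 25 to 50 CPM -0.04 (n = 32), beside -0.05, and from 50 CPM it was 0.00 (n = 12), beside 0.05. The part of length and level in the median of the ZNF genes was not tested.

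**Figure D5:**
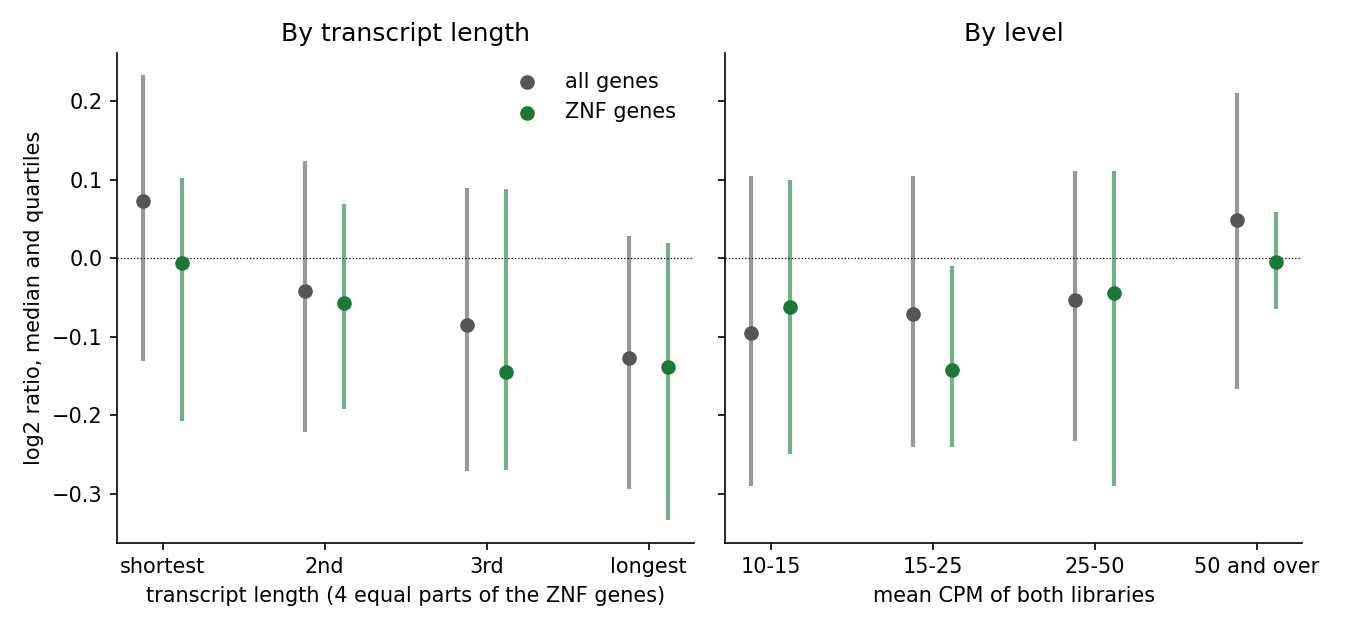
Median log2 ratio (points) with quartiles (bars) of ZNF genes and of all genes with a mean of at least 10 CPM, by transcript length in 4 equal parts of the ZNF genes (left) and by mean CPM (right). In both sets the medians are lower for longer transcripts than for the shortest, with -0.14 for ZNF genes and -0.13 for all genes in the longest part.

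The proteins through which KRAB zinc fingers silence chromatin were described from a list of 4 parts. Of 7 core partners 5 passed the mean of 10 CPM, all with a log2 ratio above 0, a median of 0.21 (0.26 with TMM scaling), and 3 called higher (4 with TMM scaling), or 60% beside 27.0% of all genes (80% beside 33.0% with TMM scaling). All 5 had more than 50 CPM, and of all genes at that level 1620 of 3689 were called higher with library size as the scaling. TRIM28, which binds the KRAB box directly, had 61.6 CPM without and 64.5 CPM with M2BPGi and was not called (interval -0.04 to 0.17), but it was called higher with TMM scaling. CBX1, a heterochromatin protein that binds methylated histone H3, rose from 115 to 162 CPM, with a log2 ratio of 0.49 (interval 0.42 to 0.56). SUMO2 rose from 157 to 206 CPM (log2 ratio 0.39), and it encodes a small modifier that is joined to TRIM28. The methyltransferase gene SETDB1 was just below the level, with 9.65 and 9.29 CPM. ATF7IP was too, with 9.73 and 9.69 CPM, and both had a log2 ratio below 0 and no call.

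Of the 13 NuRD subunits 12 passed, with a median log2 ratio of 0.06 (0.11 with TMM scaling), 4 called higher and 2 lower, or 33.3% and 16.7% beside 27.0% and 32.4% of all genes. With TMM scaling 6 were called higher and 1 lower, or 50% and 8.33% beside 33.0% and 26.7% of all genes. HDAC2, a histone deacetylase, rose from 135 to 163 CPM (log2 ratio 0.27, interval 0.20 to 0.33). CHD4, the remodelling subunit and the target of ZNF410 named above, fell from 50 to 42.7 CPM (log2 ratio -0.22, interval -0.35 to -0.11), while ZNF410 itself rose. The HUSH list had 3 members past the level with a median of -0.18, of which 1 was called lower, or 33.3% beside 32.4% of all genes. FAM208A, its core subunit now named TASOR, had 15.7 and 13.5 CPM and was not called. The list for DNA methylation and histone deposition had 5 members with a median of -0.13 (-0.08 with TMM scaling), of which 3 were called lower (60%, beside 32.4% of all genes), among them ATRX, a remodeller of repeats, from 18.5 to 15.6 CPM (log2 ratio -0.24). With TMM scaling 0 of these 5 were called, and 0 of the 3 of the HUSH list past the level. Of all genes 33.0% were called higher and 26.7% lower with this scaling. MORC2, a partner of HUSH below the level, had 7.45 and 9.13 CPM and was called higher with TMM scaling only. GATAD2B, the NuRD subunit below the level, fell from 5.74 to 4.1 CPM (log2 ratio -0.40, interval -0.87 to -0.10). It was called lower with TMM scaling too. Over all 25 partners the median was -0.03 (0.02 with TMM scaling), with 7 called higher and 6 lower (10 and 1 with TMM scaling). These are 28% and 24%, beside 27.0% and 32.4% of all genes, and 40% and 4% with TMM scaling, beside 33.0% and 26.7%.

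Other zinc finger families, which the rule did not take, were described in the same way. The 14 ZBTB genes, which pair C2H2 fingers with a BTB domain, had a median log2 ratio of -0.24, with 13 below 0 (12 with TMM scaling). Of these genes 8 were called lower and 0 higher, or 57.1% lower beside 32.4% of all genes. With TMM scaling 7 were called lower (50%, beside 26.7% of all genes) and 0 higher. ZBTB7A, a repressor of fetal globin and of glycolysis genes, fell from 19.97 to 14.8 CPM (log2 ratio -0.40, interval -0.63 to -0.23), and ZBTB21 fell from 23.3 to 17.5 CPM (log2 ratio -0.39). Of 4 PRDM genes past the level 2 were called lower and 2 higher, or 50% each, beside 32.4% and 27.0% of all genes. PRDM15 fell from 13.4 to 9.09 CPM (log2 ratio -0.51) and PRDM2 from 20.5 to 16.8 CPM (log2 ratio -0.27), and PRDM4 rose from 14.6 to 19.2 CPM and PRDM11 from 9.86 to 12.8 CPM (log2 ratios 0.37 and 0.34). PRDM15 and PRDM11 each passed the mean of 10 CPM through 1 library, the one in which they were higher. The 4 PRDM genes had a median of 0.04. The 6 KLF genes had a median of 0.00 (0.05 with TMM scaling), with KLF16 called higher from 28.7 to 35.8 CPM (log2 ratio 0.31). The 3 ZFP genes had a median of 0.09, the 2 ZSCAN genes -0.22 and the 2 ZKSCAN genes -0.07. Of the ZFP genes 1 was called higher (33.3%, beside 27.0% of all genes), and 2 with TMM scaling (66.7%, beside 33.0%). Of the ZSCAN genes 1 was called lower (50%, beside 32.4%), and 0 with TMM scaling (beside 26.7%). Of the ZKSCAN genes 0 were called. The 31 genes of all 6 families had a median of -0.11, with 4 called higher and 11 lower (5 and 9 with TMM scaling), or 12.9% and 35.5% beside 27.0% and 32.4% of all genes. The median level of these 31 genes was 17.0 CPM. Of all genes from 15 to 25 CPM, 275 of 1928 were called higher and 589 lower.

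The level of 10 CPM cut through a continuous range. Just inside it were ZNF764 with a mean of 10.0 CPM, ZNF512B with 10.1 CPM and ZNF780B with 10.1 CPM, and just outside were ZNF805 with 9.98 CPM, ZNF182 with 9.88 CPM and ZNF776 with 9.76 CPM. ZNF764 had 10.4 CPM without and 9.69 CPM with M2BPGi, and ZNF805 had 10.3 and 9.65 CPM. In all, 17 of the 147 were below 10 CPM in 1 of the libraries and passed through the other.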

How the data were processed

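CAGE was performed on 1 library of non-treated PLC/PRF/5 cells and 1 of cells treated with M2BPGi. Before mapping, the authors removed ribosomal tags and those with an unread base, and they grouped the mapped 5′ ends with CAGEr. Their methods give BWA and a mouse genome, whereas the submitters' processing notes list BWA, HISAT2 and hg19, and human identifiers were deposited. The rule that gave tags to genes is not given in the sources used here. The deposited values are CPM per gene, rounded to 2 decimals by the authors.

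Every value above 0 lay within 0.0051 CPM of a whole number of tags of its library (1 tag being 0.0416 and 0.0402 CPM). Since the rounding is coarse beside that step, the tags so derived served only for the intervals, the binomial test and TMM, which was computed from its formula. A count of 0 allows up to 3 tags, or 0.125 and 0.121 CPM. Benjamini-Hochberg adjustment ran over 13724 identifiers with a mean of at least 1 CPM, with a threshold of 0.05. The reading back of tags, the intervals, the binomial test and TMM were tested on simulated data. The searches of sequences and of shared values were not.

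The members and lists were chosen with earlier results of these data known. Named are the 10 highest and 10 lowest log2 ratios, the 6 most abundant members, 3 on each side of the level, the role lists, and the 3 highest and 3 lowest of the partners and of the other families. Genes named as examples of shared values, of proteins without fingers, as well as TRIM28, SETDB1, ATF7IP, GATAD2B, MORC2, PRDM2 and some hepatoma markers, were added after their values were seen. The list of partners is given without 1 gene, which is not reported here. A near-identical stretch is a match of 100 nt or more, identical at 95% or more, to the first 500 nt of a member's transcript (BLAST+ 2.17.0, GENCODE v29), and a KRAB box was searched in the first 200 residues. Alternatives were other pseudocounts, levels, folds and scalings and 1 row per symbol. Python 3.11.15 with scipy 1.17.1 was used.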

Additional observations from a re-analysis of the deposited data

How the results depend on the processing

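The median log2 ratio of the ZNF genes stayed below 0 under every alternative run. It was -0.040 with the libraries rescaled so that the median over all genes was 0, -0.021 with TMM scaling, where the median of all genes was 0.02, and -0.10 without members that have a near-identical copy elsewhere, an alternative chosen after seeing the data. With these scalings 84 and 80 of the 147 were below 0. The counts at 1.5-fold rest on single genes. The number lower was 0 with a pseudocount of 5 CPM, 4 with a mean of at least 5 CPM, 1 with a mean of at least 20 CPM, 1 with the rescaled libraries and 1 with TMM. The number higher was 2 with a mean of at least 5 CPM and 0 with at least 20 CPM, which leaves out ZNF358. With a log2 ratio of 0.32 as the limit the numbers were 3 higher and 25 lower, and at 2-fold 0 were lower. With TMM scaling 23 were called higher and 35 lower (15.6% and 23.8%), beside 33.0% and 26.7% of all genes. Counting identical values once, 1 row per symbol and members with a C2H2 finger, of which the first and the last were chosen after seeing the data, left the median below 0 and the counts at 1.5-fold within 1.5 times their value. Counting identical values once gave 13 called higher and 45 lower. No symbol among the 147 identifiers ended in P, so that this alternative changed nothing. It did not take out ZNF271, which GENCODE v29 names ZNF271P and lists as a transcribed pseudogene. Of 236 log2 ratios of 59 named identifiers under other pseudocounts and scalings, 235 lay within the interval of their gene. That of ZNF358 was 0.85 with a pseudocount of 5 CPM. Since a scaling moves all genes alike, by less than these intervals reach, the count for the scalings was nearly fixed beforehand and is no check. KRT8, which lost its call with TMM scaling, was not among the 59. TMM was not run with its usual software.

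No paired analysis was possible because there was only 1 library of each kind, and for the same reason no library could be left out. The spread between cultures is therefore unknown, and a call beyond counting error says nothing of another culture. At 10 CPM a gene had about 245 tags, as ZNF780B in non-treated cells, with an interval of -0.28 to 0.24, so smaller changes of such genes were not detectable at this depth. Genes that share values or near-identical starts cannot be told apart.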

Other observations

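For 275 ZNF identifiers below the level, with a mean of 1 to 10 CPM, the median log2 ratio was -0.08 (-0.04 with TMM scaling), beside -0.11 (-0.07 with TMM scaling) over all 4260 genes of that level, with 11 called higher and 45 lower, or 4% and 16.4%, beside 7.37% and 20.6% of all genes of that level. At least 1.5-fold higher were 2 of the 275, beside 84 of the 4260 genes (1.97%). At least 1.5-fold lower were 6 of the 275, beside 332 of the 4260 (7.79%). The lowest of these log2 ratios was that of ZNF841, which fell from 9.44 to 5.03 CPM (log2 ratio -0.79, interval -1.24 to -0.59). The highest was that of ZNF883, which rose from 0.5 to 1.81 CPM. Its log2 ratio of 0.91 includes the pseudocount, and its interval of 0.92 to 2.91 does not. ZNF32 had 6.28 CPM without and 11.3 CPM with M2BPGi, with a log2 ratio of 0.76 (interval 0.56 to 1.15). ZNF841, ZNF883 and ZNF32 were chosen after their values were seen. Among the repressors, ZNF274, which marks ZNF gene clusters, fell from 8.15 to 6.31 CPM (log2 ratio -0.32, interval -0.68 to -0.06), but was not called with TMM scaling. ZNF462 and ZNF423 were at 0 in both libraries. These repressors are members of the role lists below the level.

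The genes within 15000 bases of ZNF358 on the same strand did not share its gain. Of these, CTD-2207O23.10 had 6.16 CPM without and 6.11 CPM with M2BPGi (log2 ratio -0.01, interval -0.35 to 0.33). MCOLN1, a lysosomal ion channel gene, fell from 63.4 to 41.6 CPM (log2 ratio -0.60, interval -0.72 to -0.49), and PNPLA6, a phospholipase gene, fell from 55.2 to 42.8 CPM (log2 ratio -0.36, interval -0.48 to -0.25). Beside ZNF692, the gene ZNF672 on the other strand had 28.5 CPM without and 24.8 CPM with M2BPGi (log2 ratio -0.19, interval -0.36 to -0.04), a lower call that TMM scaling did not give. These neighbours were chosen after the values of ZNF358 and ZNF692 were seen.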
